A study of Mus musculus with 6 samples.

Results

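Mouse embryonic stem (ES) cells that had received a small interfering RNA (siRNA) against Lin28a were compared with cells that had received none. The cells were of the line A3-1, a mouse ES cell line, cultured with fetal bovine serum, non-essential amino acids and LIF. The comparison sets the 2 arrays titled siLin28a, taken 48 h after the siRNA was given, against the 2 titled untreated. It uses 4 of the 6 arrays of the series, and it was made for the 21797 rows (probe sets) with 1 gene symbol out of 35556 rows in the table. The other 2 arrays come from cells given an siRNA against green fluorescent protein (siGFP) for the same time; they enter the shared estimate of spread but no difference, unless they are named. Because untreated cells received no siRNA, a difference in this comparison holds the effect of siRNA delivery and that of the loss of Lin28a together. The labels give 1 siRNA against Lin28a and no delivery reagent. Nothing in them ties a replicate to a culture of its own, so the p-values rest on a spread between arrays that may be no more than technical.

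LIN28A is an RNA-binding protein of pluripotent cells. It binds precursors of the let-7 microRNAs, recruits terminal uridylyltransferases that mark them for decay, and also binds many messenger RNAs. An siRNA is a short RNA duplex, one strand of which guides the Argonaute proteins to a matching messenger RNA, which is then cut. ES cells held with LIF can move between a naive state, close to the inner cell mass, and a primed state, close to the epiblast after implantation, and the 2 states differ in transcription factors and DNA methyltransferases.

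The duplex given to the siLin28a cells is shown because it is the agent that the siLin28a cells received and the untreated cells did not. The labels give its 2 strands, each with 19 bases that pair throughout with the other strand and with 2 deoxythymidines at the 3′ end, which are left out. Capitals mark bases 2 to 8, the stretch by which a loaded strand could pair with other transcripts in the manner of a microRNA seed. Of 1679 mature mouse microRNAs in the RefSeq table, 0 had the same bases 2 to 8 as either strand.
siLin28a strand 1: gCAGAAGCgaagauccaaa
siLin28a strand 2: uUUGGAUCuucgcuucugc

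The target was lower in both siLin28a arrays. Lin28a stood at 9.1 and 9.4 on the log2 scale in the untreated arrays and at 7.4 in each siLin28a array, so the groups did not overlap. The difference of group means was −1.85 log2 units with a moderated standard error (SE) of 0.16, or 0.277 of the untreated level, with an adjusted p of 0.171 by limma. The siGFP arrays had the untreated values, 9.1 and 9.4. Lin28b, a second LIN28 protein of the same function, had 6.6 and 6.3 in untreated cells and 6.1 and 6.6 with siLin28a, a difference of −0.10 (SE 0.23) within the spread of either group. Its sign turned without untreated replicate 1 (0.05) or siLin28a replicate 1 (0.15).

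Over the whole array the difference was small. Of the 21797 rows, 0 passed an adjusted p of 0.05 by limma, a share called of 0.0%. An unadjusted p under 0.05 was reached by 1425 rows (6.54%), 622 of them higher with siLin28a (2.85%) and 803 lower (3.68%). A further quantile normalization turned this split to 915 higher and 654 lower. A difference of 2-fold or more was seen in 25 rows on the higher side (0.115%) and in 27 on the lower side (0.124%), together 52 rows (0.239%). That split was 77 higher and 33 lower without untreated replicate 1, 30 and 96 without untreated replicate 2, 35 and 19 without siLin28a replicate 1, and 38 and 81 without siLin28a replicate 2, so it turns with single arrays. In 5244 rows (24.1%) the arrays of the 2 groups did not overlap. The words higher and lower below therefore describe differences of group means, and none of them is a call.

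The median log2 fold change was 0.00 over all 21797 rows, but it moved with brightness. Rows with a mean from 4 to 6 had a mean log2 fold change of 0.025, those from 6 to 8 one of −0.050 and those from 8 to 10 one of −0.11, and the last was −0.0078 once the arrays were quantile normalized again and −0.014 with cyclic loess. The upper quartile of all rows was 7.2 in both untreated arrays and 7.0 and 7.1 in siLin28a replicate 1 and 2. The part of this shift in the small differences of bright gene groups was not tested.

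**Figure D1:**
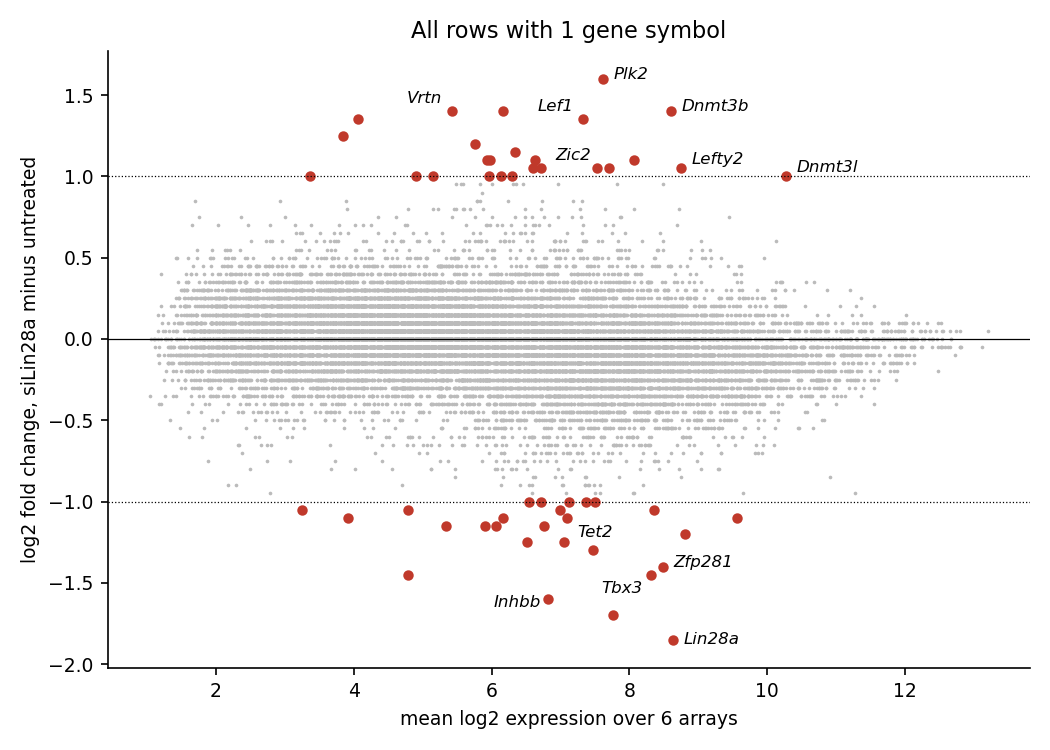
Each point is 1 of the 21797 rows with 1 gene symbol; the horizontal axis is its mean log2 expression over 6 arrays and the vertical axis the log2 fold change of siLin28a minus untreated. Red points are the 52 rows on or beyond the dotted lines of a 2-fold difference; Lin28a lies lowest at −1.85 and Plk2 highest at 1.60.

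The leading row among those higher with siLin28a was Plk2, a polo-like kinase and p53 target. Its values were 6.8 and 6.7 in untreated cells and 8.4 and 8.3 with siLin28a. The log2 fold change was 1.60 (SE 0.12), a 3.03-fold higher level, with an adjusted p of 0.171 by limma. Leaving out any 1 of the 4 arrays gave between 1.55 and 1.65. The siGFP arrays lay between the groups at 7.8 and 7.7, which puts Plk2 1.00 (SE 0.12) above untreated cells with the control siRNA and a further 0.60 (SE 0.12) above siGFP with siLin28a.

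Dnmt3b came next. It encodes a DNA methyltransferase that sets new methylation marks in the epiblast. It had 8.0 and 8.1 in untreated cells and 9.5 and 9.4 with siLin28a, a log2 fold change of 1.4 (SE 0.13) with an adjusted p of 0.171 by limma. With siGFP it had 8.4 and 8.2, so here the larger step was the one between the 2 siRNAs, at 1.15, against 0.25 between siGFP and untreated cells. Lef1, a transcription factor that acts with beta-catenin in the Wnt pathway, had 6.8 and 6.7 untreated, 7.3 and 7.0 with siGFP and 8.0 and 8.2 with siLin28a. Its log2 fold change was 1.35 (SE 0.15), with an adjusted p of 0.366 by limma.

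Vrtn, which acts in vertebral development, had 5.0 and 4.7 untreated and 6.1 and 6.4 with siLin28a, a log2 fold change of 1.4 (SE 0.16). Tek, the receptor for angiopoietins, had 6.1 and 6.0 untreated, 6.8 and 6.6 with siGFP and 7.2 and 7.1 with siLin28a, a log2 fold change of 1.10 (SE 0.13). Bcl11a, a zinc finger transcription factor, had 5.7 and 5.5 in untreated cells, 5.6 and 5.7 with siGFP and 6.6 and 6.8 with siLin28a. Car4, a membrane-bound carbonic anhydrase, likewise had siGFP arrays at the untreated level, with 6.0 in both untreated arrays, 6.0 and 5.8 with siGFP and 6.9 and 7.1 with siLin28a.

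The remaining rows among the 12 leading higher ones had log2 fold changes between 0.95 and 1.20. The neurofilament gene Nefl had 0.95 (SE 0.13), the mTOR inhibitor Ddit4l 0.95 (SE 0.14), the Eph receptor ligand Efnb2 0.95 (SE 0.14), the calcium channel related gene Cachd1 1.10 (SE 0.16) and Syne2, which links the nuclear envelope to the cytoskeleton, 1.20 (SE 0.18). All of them were also higher with siGFP than without siRNA, by 0.35 for Cachd1, 0.40 for Ddit4l, 0.50 for Efnb2 and Syne2 and 0.60 for Nefl. Syne2 has 4 rows on the array, and their log2 fold changes ran from 0.60 to 1.20 with no overlap between the groups in any of them.

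**Figure D2:**
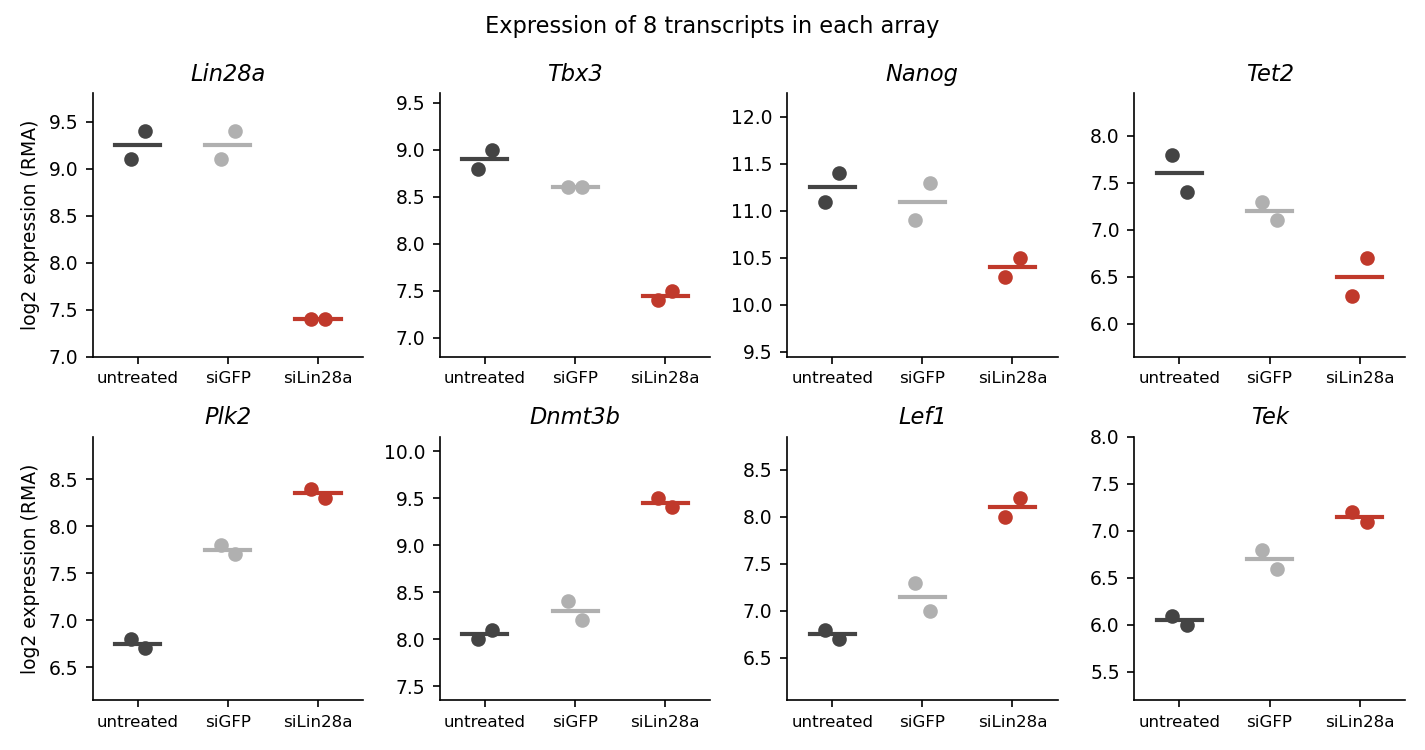
Log2 expression of 8 transcripts, 1 point per array and a line at each group mean, for untreated, siGFP and siLin28a cells; every panel spans the same number of log2 units. The siGFP arrays of Lin28a match the untreated ones, those of Plk2 and Tek lie between the 2 other groups, and those of Dnmt3b and Nanog lie nearer the untreated arrays.

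Tbx3 had the smallest p of the lower rows, next to Lin28a. It is a transcription factor that sustains naive ES cells. It had 8.8 and 9.0 in untreated cells, 8.6 in both siGFP arrays and 7.4 and 7.5 with siLin28a, a log2 fold change of −1.45 (SE 0.13) or 0.366 of the untreated level. The adjusted p was 0.171 by limma. Rnf213, a large ubiquitin ligase, was represented by 2 rows that had 8.5 and 8.4, and 7.9 in both arrays, when untreated, and 7.5 in both arrays, and 6.9 and 7.1, with siLin28a. Their log2 fold changes of −0.95 (SE 0.11) and −0.90 (SE 0.12) were close to each other.

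The calcium-binding protein gene Calb2 had a log2 fold change of −1.25 (SE 0.19), with 7.0 and 7.3 untreated, 6.3 and 6.7 with siGFP and 5.8 and 6.0 with siLin28a. Kbtbd8, an adaptor of a ubiquitin ligase, had −1.0 (SE 0.14), and Jam2, a junctional adhesion molecule, −0.80 (SE 0.13). Rsbn1 had −0.85 (SE 0.14), Ap5m1, a subunit of an adaptor complex of late endosomes, −0.75 (SE 0.13) and Rbm12b2, one of a group of related RNA-binding genes that probes may not tell apart, −0.75 (SE 0.13). Tns1, which ties integrins to actin, gave 2 of the 12 rows, at −1.0 (SE 0.16) and −0.75 (SE 0.12). The 6 rows of Tns1 disagree, with log2 fold changes from −1.0 to 0.10 and no overlap in 3 of them.

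**Figure D3:**
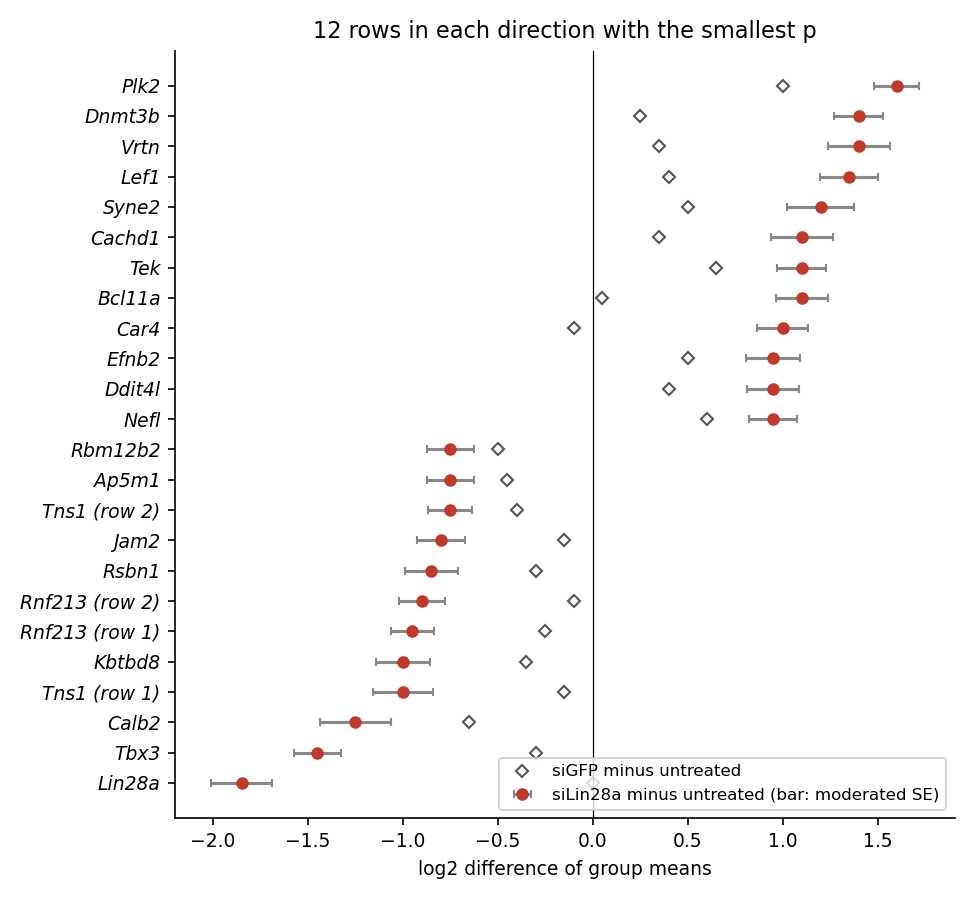
Log2 differences of group means for the 12 rows in each direction with the smallest unadjusted p; red points are siLin28a minus untreated with moderated SE, and open diamonds are siGFP minus untreated, which shares the untreated arrays. The diamond of Plk2 lies at 1.00 and that of Nefl at 0.60, while those of Bcl11a at 0.05, Car4 at −0.10 and Lin28a at 0.00 lie near the zero line.

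Targets of p53 had the highest median of the 29 gene lists. The lists and their members were chosen with earlier results of these data known, so their order and counts are descriptions only. The transcription factor p53 is activated by DNA damage and other stress and induces genes that stop the cell cycle, repair DNA or trigger cell death. Of 40 listed genes 36 had a row, and 26 of these were higher, 6 lower and 4 equal, with a median log2 fold change of 0.25 against 0.00 over all 19946 genes. The list median was 0.20 for siGFP minus untreated cells and 0.05 for siLin28a minus siGFP, 2 differences that share the siGFP arrays. An unadjusted p under 0.05 was reached by 13 higher members (2.81% of all genes) and 0 lower ones (3.59% of all genes). The groups did not overlap in 20 higher members (11.4% of all genes) and 2 lower ones (12.7% of all genes). By limma, 0 members passed the adjusted threshold over all rows. Cdkn1a, Bax, Gdf15 and Trp53 had no row of their own and were not analysed here.

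After Plk2, the members with the highest values were Ddit4l, Phlda3 and Epha2. Phlda3, an inhibitor of Akt signalling, had 6.8 in both untreated arrays, 7.3 and 7.7 with siGFP and 7.6 and 7.7 with siLin28a, a log2 fold change of 0.85 (SE 0.16). Epha2, a receptor tyrosine kinase, had 8.2 and 8.3 untreated and 9.0 and 9.1 with siLin28a, a log2 fold change of 0.80 (SE 0.12), and its siGFP arrays were at 8.9 and 8.8. For both genes the siGFP arrays lay near the siLin28a ones.

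Perp, an adhesion gene of stratified epithelia, had 6.0 in both untreated arrays, 6.5 and 6.8 with siGFP and 6.6 and 6.7 with siLin28a. Ccng1, a cyclin that acts in feedback on p53, had 9.9 and 9.6, then 10.4 and 10.2, then 10.4 and 10.3. Mdm2, the ubiquitin ligase that degrades p53, had 7.8 and 7.9, then 8.2 and 8.0, then 8.2 and 8.4. The log2 fold changes of siLin28a against untreated cells were 0.65 (SE 0.14) for Perp, 0.60 (SE 0.15) for Ccng1 and 0.45 (SE 0.14) for Mdm2.

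Other members with an unadjusted p under 0.05 were Trp53inp1 and Dcxr at 0.50, and Zmat3, Eda2r, Cd80 and Btg2 at 0.45. Members that had no unadjusted p under 0.05 include the cell death genes Bbc3 and Fas at 0.00, Pmaip1 at 0.15 and Apaf1 at 0.30, while Perp, Trp53inp1 and Eda2r, above, also act in cell death. The lowest were Tigar, which limits glycolysis, at −0.35 and Rrm2b, a subunit of ribonucleotide reductase, at −0.15. Without 1 array the number of higher members was between 25 and 30, and the number of these with an unadjusted p under 0.05 was 16 without untreated replicate 2 and 8 without untreated replicate 1 or siLin28a replicate 2.

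The promoters of 4 members that were higher together are shown as examples, from the RefSeq table (build GRCm38.p6). Each runs from 250 bases before to 50 after the annotated start. They are not the 4 with the largest differences. Phlda3 at 0.85 and Epha2 at 0.80 had 0 matches in their windows and are not printed. Capitals mark matches to the p53 half-site consensus, which reads the same on both strands. The windows are Plk2 at chr13:110394794-110395093 (plus strand, 0 matches), Ddit4l at chr3:137623422-137623721 (plus strand, 1 match), Ccng1 at chr11:40755237-40755536 (minus strand, 1 match) and Mdm2 at chr10:117710709-117711008 (minus strand, 1 match).
Plk2: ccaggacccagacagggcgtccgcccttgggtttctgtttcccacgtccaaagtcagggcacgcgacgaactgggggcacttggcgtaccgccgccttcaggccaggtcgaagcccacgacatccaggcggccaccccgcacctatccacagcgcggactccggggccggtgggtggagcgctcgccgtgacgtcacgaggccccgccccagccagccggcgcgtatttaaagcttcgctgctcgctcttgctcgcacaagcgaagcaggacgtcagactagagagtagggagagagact
Ddit4l: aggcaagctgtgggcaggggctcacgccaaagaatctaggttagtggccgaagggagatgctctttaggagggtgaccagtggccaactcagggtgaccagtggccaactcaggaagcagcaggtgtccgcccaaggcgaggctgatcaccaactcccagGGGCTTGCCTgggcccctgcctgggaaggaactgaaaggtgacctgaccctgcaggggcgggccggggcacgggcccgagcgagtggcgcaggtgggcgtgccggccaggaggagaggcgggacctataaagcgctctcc
Ccng1: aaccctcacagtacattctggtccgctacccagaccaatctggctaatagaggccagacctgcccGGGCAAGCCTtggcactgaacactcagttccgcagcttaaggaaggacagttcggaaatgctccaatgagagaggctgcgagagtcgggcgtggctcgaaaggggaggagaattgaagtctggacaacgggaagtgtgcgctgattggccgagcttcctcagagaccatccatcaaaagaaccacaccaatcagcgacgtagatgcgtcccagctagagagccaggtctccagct
Mdm2: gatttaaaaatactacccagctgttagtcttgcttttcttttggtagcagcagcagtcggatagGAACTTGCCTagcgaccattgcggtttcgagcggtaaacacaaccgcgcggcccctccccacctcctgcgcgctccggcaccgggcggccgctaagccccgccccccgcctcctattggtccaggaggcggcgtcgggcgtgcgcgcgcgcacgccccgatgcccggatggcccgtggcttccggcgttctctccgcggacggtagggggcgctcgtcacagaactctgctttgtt

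Of the 36 measured p53 targets 27 had a promoter in that table, and 10 of them (37.0%) held at least 1 half-site, against 9.55% of all 27025 genes in the table. Of the 10 higher members with an unadjusted p under 0.05 that had a promoter, 3 held one. These 3 are Ddit4l, Ccng1 and Mdm2, all printed above, so the printed promoters hold more matches than the 10 do. A pair of half-sites with at most 13 bases between them was found for 0 of the 27 genes and for 20 of all genes. The match in Ddit4l was GGGCTTGCCT, that in Ccng1 GGGCAAGCCT and that in Mdm2 GAACTTGCCT. A match is a description of the letters and not a bound site.

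The naive pluripotency list, chosen in the same way, had the lowest median. Its members are transcription factors and other genes that mark ES cells held with LIF. Of 37 measured genes 33 were lower, 3 higher and 1 equal, with a median of −0.30. An unadjusted p under 0.05 was reached by 11 lower members (3.59% of all genes) and 0 higher ones (2.81% of all genes), and the groups did not overlap in 22 lower members (12.7% of all genes) and in 0 higher ones (11.4% of all genes). The 11 became 7 without siLin28a replicate 1 and 14 without untreated replicate 1. All 37 had a mean of at least 6, and such bright rows lean lower in this comparison. When only the 9821 rows with a mean of at least 6 were fitted, 611 were lower with an unadjusted p under 0.05 and 278 higher. Of the same rows 1789 were lower without overlap and 836 higher. The shares of all genes therefore understate the background of this list. Lin28a itself is in the list. Without 1 array, 29 to 34 members were lower, and under the 3 other scalings 31 to 33 were.

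Nanog, a core factor of pluripotency, had 11.1 and 11.4 in untreated cells and 10.3 and 10.5 with siLin28a, a log2 fold change of −0.85 (SE 0.19). Tfcp2l1, a naive factor downstream of LIF, had 9.8 and 10.3 untreated and 8.9 and 9.3 with siLin28a, a log2 fold change of −0.95 (SE 0.22). Prdm14, which restrains FGF signalling and DNA methylation in naive cells, had 7.4 in both untreated arrays and 6.4 and 6.8 with siLin28a. Zfp42, also called Rex1, a marker of naive cells, had 10.2 and 10 untreated and 9.3 and 9.5 with siLin28a. Klf4, a factor that LIF induces, had 8.7 and 8.2 untreated and 7.8 in both siLin28a arrays. In each of these genes the siLin28a arrays lay below both untreated arrays.

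The siGFP arrays of most of these genes lay near the untreated ones. Prdm14 and Zfp42 each had a difference of 0.00 between siGFP and untreated cells, Klf4 0.10, Nanog −0.15 and Tfcp2l1 −0.25. Tbx3 and Tet2, also in the list, had −0.30 and −0.40, and the list median of that difference was 0.00. Between siLin28a and untreated cells other naive factors moved less, with −0.35 for Klf2 and Nr5a2, −0.25 for Esrrb and Klf5, −0.15 for Gbx2 and −0.10 for Tdgf1. The core factors Pou5f1 and Sox2, which naive and primed cells share, had −0.25 (SE 0.14) and −0.30 (SE 0.15). Pou5f1 was at 11.3 and 11.4 untreated and 11 and 11.2 with siLin28a. The 3 higher members were Dppa3 at 0.30 and Nr0b1 and Gdf3 at 0.05.

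**Figure D4:**
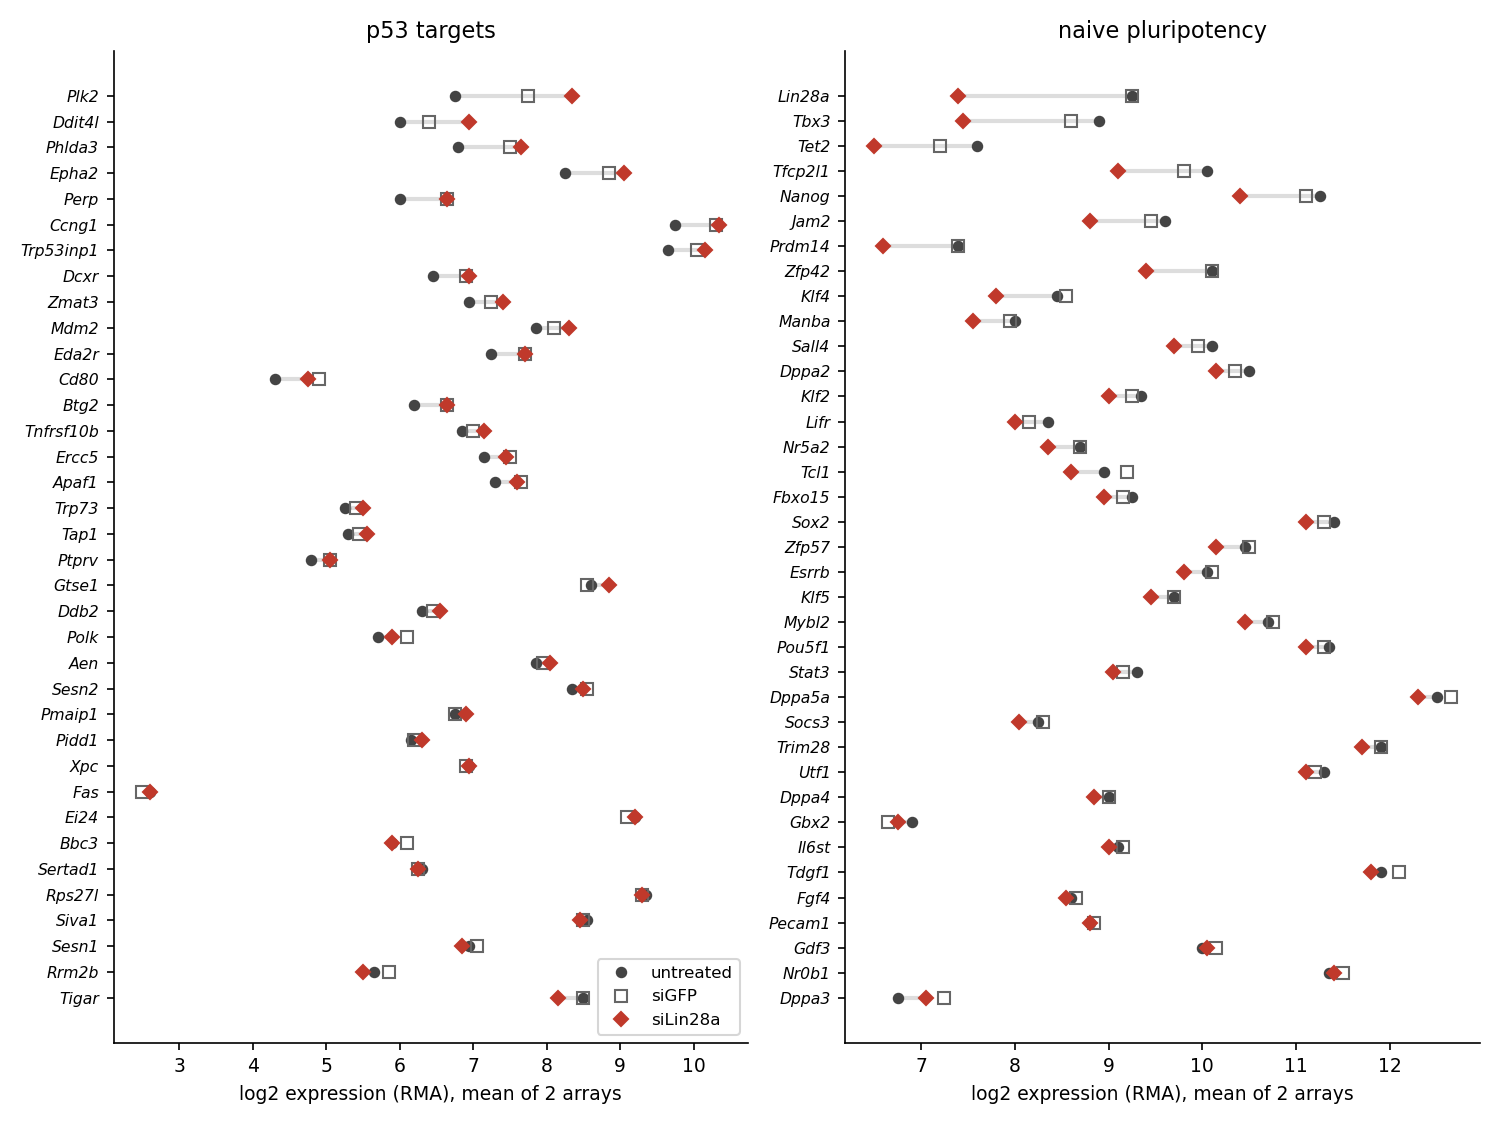
Mean log2 expression of 2 arrays for the 36 measured p53 targets (left) and the 37 naive pluripotency genes (right), with black circles for untreated, open squares for siGFP and red diamonds for siLin28a. For Phlda3, Perp and Ccng1 the square lies by the red diamond, and for Lin28a, Prdm14 and Zfp42 it lies on the black circle.

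The primed epiblast list divided. Of 24 measured genes 15 were higher, 8 lower and 1 equal, with a median of 0.175, and 7 higher members (2.81% of all genes) and 1 lower one (3.59% of all genes) had an unadjusted p under 0.05. The higher ones were Dnmt3b, Lef1, Pim2, Zic2, Car4, Sox11 and Pou3f1. Pim2, a kinase that promotes survival, had 7.5 and 8.0 untreated, 7.7 and 7.5 with siGFP and 8.8 and 8.9 with siLin28a, a log2 fold change of 1.10 (SE 0.19). Zic2, a zinc finger factor of primed cells, had 7.3 and 7.2 untreated and 8.5 and 8.1 with siLin28a, a log2 fold change of 1.05 (SE 0.26). Sox11, which acts in neural development, had 6.2 in both untreated arrays and 6.6 and 7.1 with siLin28a.

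Other primed genes did not share this. Fgf5 and Otx2, a growth factor and a homeobox factor that mark the primed state, had 0.25 (SE 0.18) and 0.20 (SE 0.27), with overlapping groups. Etv5 and Etv4, ETS factors that FGF signalling induces, had −0.35 (SE 0.13) and −0.50 (SE 0.32). Zic5 had −0.05 against untreated cells and was lowest with siGFP, at 7.6 and 7.3 against 8.3 and 8.1 untreated and 8.0 and 8.3 with siLin28a. Dnmt3a followed the same order, with 8.6 and 8.3 untreated, 7.8 and 8.1 with siGFP and 8.1 and 8.7 with siLin28a. The comparison with untreated cells thus held no difference for Zic5 and Dnmt3a beyond the spread of the arrays.

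Among 16 measured genes of DNA methylation and demethylation, 3 differed by at least 2-fold (0.216% of all genes). Besides Dnmt3b, these were Dnmt3l, the cofactor of the de novo enzymes, and Tet2, which oxidises methylated cytosine. Dnmt3l had 9.6 and 9.9 untreated, 10.6 and 10 with siGFP and 10.8 and 10.7 with siLin28a, a log2 fold change of 1.00 (SE 0.22). Tet2 had 7.8 and 7.4 untreated, 7.3 and 7.1 with siGFP and 6.3 and 6.7 with siLin28a, a log2 fold change of −1.10 (SE 0.20). The others lay between −0.40 for the glycosylase Mbd4 and 0.35 for the dioxygenase Tet3. Among these the maintenance genes Dnmt1 and Uhrf1 had 0.15 and 0.00, and Tet1, a dioxygenase that ES cells express strongly, had −0.15. The list median was −0.05.

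In the Wnt list, Lef1 was the only one of 24 measured members to differ by at least 2-fold (0.216% of all genes). The median was −0.05, with 7 members higher, 13 lower and 4 equal. Axin2, a feedback inhibitor that Wnt signalling induces, was lower, with 6.2 and 6.1 untreated, 5.8 in both siGFP arrays and 5.6 and 5.8 with siLin28a, a log2 fold change of −0.45 (SE 0.13). The receptor Fzd5 had −0.55 (SE 0.14), the coreceptor Lrp6 −0.40 (SE 0.14) and the receptor Fzd7 0.45 (SE 0.16). Tcf7l1, a repressor of the same family as Lef1, had 0.35 (SE 0.15), with siGFP arrays at 7.5 and 7.2 that were as high as the siLin28a arrays at 7.4 and 7.2. Myc had the lowest value of the list, −0.65 (SE 0.50), with 8.2 and 8.0 untreated but 6.8 and 8.1 in the siLin28a arrays, and 0.00 without siLin28a replicate 1.

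The Nodal pathway signals through activin receptors and SMAD proteins, and its inhibitors Lefty1 and Lefty2 are induced by the signal itself. Lefty2 had 8.1 and 7.8 untreated, 9.6 and 9.0 with siGFP and 9.3 and 8.7 with siLin28a, a log2 fold change of 1.05 (SE 0.28). Lefty1 had 8.1 and 7.6 untreated and 8.7 and 8.9 with siLin28a, a log2 fold change of 0.95 (SE 0.20), and its siGFP arrays at 8.9 and 8.7 held the same 2 values. The nuclear partner Foxh1 had 0.70 (SE 0.17), the inhibitory Smad7 −0.60 (SE 0.14) and the receptor Acvr2a −0.50 (SE 0.15). The ligand Nodal had 0.10 (SE 0.16). Over the 19 measured members 9 were higher and 9 lower, and the median was 0.00.

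LIF signals through JAK kinases and STAT3. The list of that pathway had a median of −0.175, with 15 of 18 measured members lower, 2 higher and 1 equal. Of all 19946 genes 9297 were lower. The median brightness of the members was 8.12, and all rows with a mean from 8 to 10 had a median of −0.10. Lifr, Il6st, Stat3, Socs3, Tfcp2l1, Klf4 and Gbx2 are also in the naive list, so the 2 lists are not separate results. The large values of the LIF list were those of Pim2, Tfcp2l1 and Klf4, already given. The receptor Lifr had −0.35, Jak2 −0.30, Stat3 −0.25 (SE 0.15) and Socs3, a feedback inhibitor that STAT3 induces, −0.20. In the list of FGF and ERK signalling 6 of 21 measured members were higher and 13 lower, with a median of −0.05. Fgfr2, a receptor, had 5.2 and 5.4 untreated and 5.9 in both siLin28a arrays, a log2 fold change of 0.60 (SE 0.14). Dusp4, a phosphatase of ERK, had 0.60 (SE 0.27), and gave 0.30 and 0.90 without siLin28a replicate 1 and 2.

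Among genes of LIN28, of terminal uridylation and of the small RNA machinery there were 9 of 26 measured members higher and 15 lower, with a median of −0.10 that includes the target. The median brightness of these members was 8.16, and all rows with a mean from 8 to 10 also had a median of −0.10. Apart from Lin28a the largest value of the list was that of Tnrc6c, which carries out silencing with the Argonaute proteins. Tnrc6c had 7.6 and 7.7 untreated and 7.2 and 7.0 with siLin28a, a log2 fold change of −0.55 (SE 0.15).

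LIN28A acts on the let-7 family, whose members share a seed at bases 2 to 8. They are shown because messenger RNAs are read as let-7 targets through that seed. In the RefSeq table (build GRCm38.p6) 11 mature microRNAs hold it, of which 3 that differ outside the seed are printed, with the seed in capitals.
mmu-let-7a-5p: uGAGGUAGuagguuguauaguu
mmu-let-7d-5p: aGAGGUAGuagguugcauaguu
mmu-let-7g-5p: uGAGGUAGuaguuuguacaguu

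The 29 measured let-7 target messenger RNAs had a median of 0.00, with 11 higher, 14 lower and 4 equal. An unadjusted p under 0.05 was reached by 2 lower members (3.59% of all genes) and 0 higher ones (2.81% of all genes). These 2 are Lin28a, the target of the siRNA, and Sall4, a zinc finger factor of pluripotent cells, at −0.40 (SE 0.14). Ccnd2, a cyclin of the G1 phase, did not reach it and had −1.20 (SE 0.52), with 9.7 and 9.4 untreated and 7.8 and 8.9 with siLin28a. Its siGFP arrays were at 7.8 and 9.2, and the difference was −1.75 without siLin28a replicate 2 and −0.65 without siLin28a replicate 1. The 9 rows of let-7 hairpin genes were dim, and their log2 fold changes lay on both sides of 0, from −0.55 to 0.25. Mirlet7d had 5.0 and 4.7 untreated and 4.3 and 4.5 with siLin28a, Mirlet7f-1 had 4.7 and 5.1 against 4.2 and 4.5, while Mirlet7i had 5.6 in both untreated arrays against 5.9 and 5.7. Mirlet7c-1 had a log2 fold change of 0.25 (SE 0.22), Mirlet7a-2 one of 0.10 (SE 0.24) and Mirlet7a-1 one of 0.00. These rows read precursor RNA and not the mature microRNA.

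Foreign RNA can be sensed by RIG-I-like receptors, PKR and toll-like receptors, which lead to an interferon response. Of 36 measured genes of that response 18 were higher, 15 lower and 3 equal, with a median of 0.025, which was −0.05 without siLin28a replicate 1. Only 15 of the 36 had a mean of at least 6. Besides Rnf213 at −0.95, the largest value was that of Ifitm3, which restricts virus entry, at 0.55 (SE 0.24), with 8.7 and 9.3 untreated and 9.4 and 9.7 with siLin28a.

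The stress lists that act through ATF4 and through the unfolded protein response had medians of 0.00. Ddit4, an inhibitor of mTOR signalling in the ATF4 list, had 7.1 and 7.0 untreated, 8.2 and 7.7 with siGFP and 8.2 and 8.0 with siLin28a, a log2 fold change of 1.05 (SE 0.19). It was the only one of 30 measured members of that list to reach an unadjusted p under 0.05, which 6.4% of all genes reached. The amino acid transporter Slc7a1 had −0.50 (SE 0.26). Among 25 ER chaperones and other unfolded protein response genes 0 reached an unadjusted p under 0.05 (6.4% of all genes). The untreated arrays differed widely for the chaperones Hsp90b1 (10.9 and 9.6) and Hspa5 (10.3 and 9.4), and the siLin28a arrays at 10.5 and 10.7, and 10 and 10.3, lay between these values. Their differences of 0.35 and 0.30 turned to −0.30 and −0.15 without untreated replicate 2.

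The cell cycle list had a median of −0.125, with 26 of 40 measured members lower, 7 higher and 7 equal. With a further quantile normalization 20 of the 40 were lower. On the higher side Mki67 and Rb1 had the largest values. Mki67, the proliferation antigen, had 7.4 and 7.0 untreated, 8.4 and 7.8 with siGFP and 8.4 and 7.9 with siLin28a, a log2 fold change of 0.95 (SE 0.27), and Rb1, which restrains entry into S phase, had 0.60 (SE 0.14). Besides Ccnd2 at −1.20, lower members included the cyclin E gene Ccne2 at −0.85 (SE 0.38), the cyclin gene Ccnd3 at −0.50 (SE 0.15), and E2f3, a factor of the G1 to S transition, at −0.40 (SE 0.15).

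Genes of the germline also divided. Stra8, which drives entry into meiosis, had 5.5 and 5.1 untreated and 4.4 in all 4 arrays with either siRNA, a log2 fold change of −0.90 (SE 0.16). Mael, which silences transposons with piRNAs, had 6.5 and 6.1 untreated, 6.6 and 6.2 with siGFP and 7.2 and 6.9 with siLin28a, a log2 fold change of 0.75 (SE 0.21). Tex11 and Dazl had −0.70 and −0.60. Over 22 measured members 8 were higher and 12 lower, with a median of −0.075. An unadjusted p under 0.05 by limma was reached by 2 higher members (2.81% of all genes) and 5 lower ones (3.59% of all genes). The groups did not overlap in 3 higher members (11.4% of all genes) and 7 lower ones (12.7% of all genes). Only 7 of the 22 had a mean of at least 6. In the 2-cell-like list 10 of 18 genes had a row, and 1 of these had a mean of at least 6. Its leading members Usp17lc and Usp17la, which belong to a family of near-identical copies, had 0.40 each, and Usp17la turned to −0.05 without siLin28a replicate 2.

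Subunits of oxidative phosphorylation were lower in 59 of 71 measured members, by a median of −0.10, and 1 of them reached an unadjusted p under 0.05 (3.59% of all genes were lower at that p). That number was 3 without either untreated array and 0 without either siLin28a array. This list is bright, and its median is that of all rows with a mean from 8 to 10. When the arrays were quantile normalized again 43 members were lower, and without untreated replicate 2 the number was 40. Atp5l, a subunit of the ATP synthase, had the largest value, −0.45 (SE 0.16), and its 6 rows ran from −0.50 to −0.40. Ndufv3 of complex I had −0.35 (SE 0.23). Cytosolic ribosomal proteins had a median of 0.00 over 51 measured members and values between −0.25 (Rpl12) and 0.25 (Rps3).

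Lysosomal genes had a median of 0.10, with 16 of 28 measured members higher and 11 lower. Cd63, a membrane protein of late endosomes and lysosomes, had 6.6 and 6.3 untreated, 7.3 and 7.2 with siGFP and 7.1 and 6.9 with siLin28a, a log2 fold change of 0.55 (SE 0.15). Manba, a mannosidase that also stands in the naive list, had −0.45 (SE 0.12). Medians were 0.05 for glycolysis, cholesterol biosynthesis and immediate early genes, −0.05 for replication-dependent histones and −0.10 for housekeeping reference genes. Leading members were Slc16a3, a lactate exporter, at 0.50 (SE 0.14) and Pfkp at −0.30 for glycolysis, Ebp at −0.40 and Hmgcs1 at −0.35 for cholesterol, and Ier5 at 0.55 (SE 0.11) and Btg2 at 0.45 (SE 0.12) for immediate early genes. H1f2 and H2bc8 had −0.35 and −0.25 among histones. Polr2a, the large subunit of RNA polymerase II, had 8.6 and 8.8 untreated, 9.3 and 9.1 with siGFP and 9.3 and 9.2 with siLin28a, a log2 fold change of 0.55 (SE 0.14), and B2m had 0.35.

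**Figure D5:**
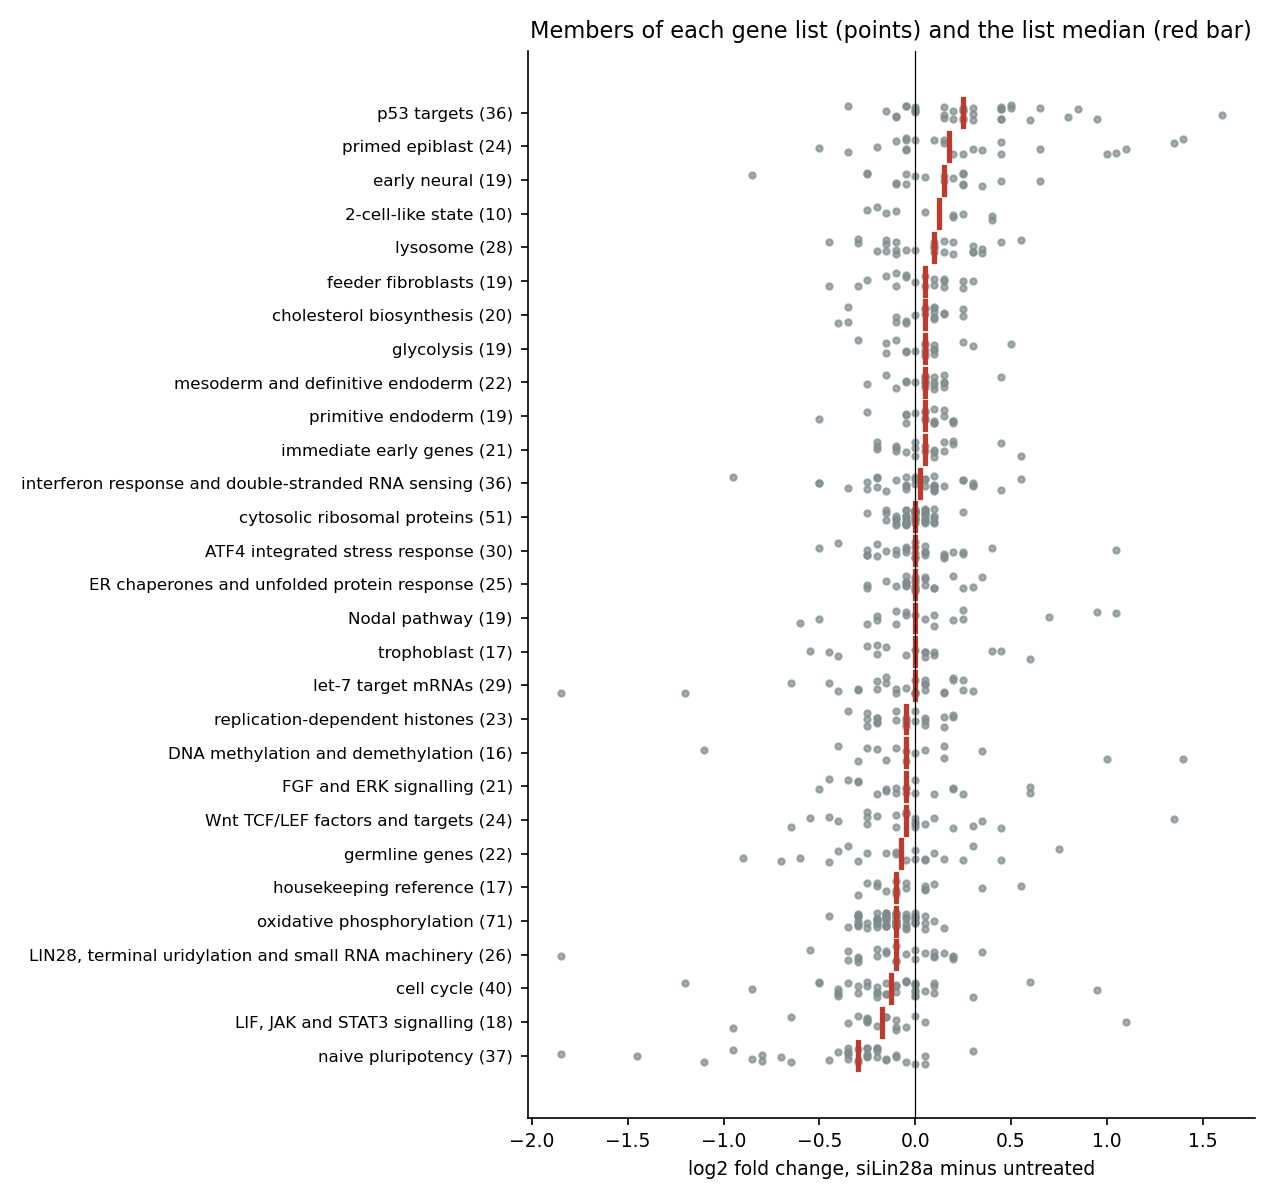
Log2 fold change of siLin28a minus untreated for the members of 29 gene lists (1 point per gene, vertical scatter for legibility) with each list's median as a red bar and the number measured in parentheses. The p53 targets have the highest median, at 0.25, and naive pluripotency the lowest, at −0.30. The lists were chosen with earlier results of these data known.

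Both groups carried the transcripts that define ES cells. Pou5f1, Sox2, Nanog, Zfp42 and Esrrb lay between 9.9 and 11.5 in the untreated arrays and between 9.3 and 11.2 in the siLin28a arrays. The log2 of their summed level was 13.25 and 13.31 untreated and lower with siLin28a, at 12.75 and 12.92. Their log2 fold changes ran from −0.85 to −0.25, and the groups did not overlap in any of the 5 (24.0% of all genes). These 5 are also in the naive list. Fibroblast markers (Col1a1, Col1a2, Col3a1, Thy1, Dcn and Postn) lay between 2.8 and 7.1 untreated and between 2.8 and 6.8 with siLin28a, and the log2 of their summed level was 8.30 and 8.43 against 8.35 and 8.21. Summed markers of primitive endoderm (Gata4, Gata6, Sox17 and Dab2) had 6.84 and 6.88 untreated and 6.94 and 6.86 with siLin28a. Those of trophoblast (Cdx2, Elf5 and Gata3) had 5.86 and 6.23 against 6.07 and 6.06, and the neural markers Sox1, Pax6 and Nes had 7.5 and 7.66 against 7.56 and 7.54. For the summed trophoblast and neural markers the siLin28a arrays lay within the untreated pair. The neural sum does not show its single members, whose log2 fold changes ran from −0.25 to 0.45. The groups did not overlap in 2 of these 3 neural markers (24.0% of all genes). For the fibroblast sum siLin28a replicate 2 lay below the untreated pair, and for the primitive endoderm sum siLin28a replicate 1 lay above it. The part of these cells in the results was not tested. The mesoderm markers Mixl1 and Eomes had 6.27 and 6.05 against 6.51 and 6.39, so both siLin28a arrays lay above the untreated pair. Eomes had a log2 fold change of 0.45 (SE 0.21). Mixl1 had one of 0.10, which turned to −0.05 without siLin28a replicate 1. The mesoderm marker T had no row of its own.

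The larger lists of other lineages had medians of 0.05 for mesoderm and definitive endoderm, primitive endoderm and feeder fibroblasts, 0.15 for early neural genes and 0.00 for trophoblast. Higher and lower members numbered 16 and 5 of 22 for mesoderm and definitive endoderm, 13 and 5 of 19 for primitive endoderm, and 10 and 8 of 19 for feeder fibroblasts. They numbered 11 and 7 of 19 for early neural genes and 8 and 8 of 17 for trophoblast. In the early neural list the groups did not overlap in 7 higher members (11.4% of all genes) and 2 lower ones (12.7% of all genes). Only 6 of its 19 members had a mean of at least 6. Tubb3, a neuronal tubulin, had 7.2 and 7.4 untreated, 6.8 and 7.2 with siGFP and 6.3 and 6.6 with siLin28a, a log2 fold change of −0.85 (SE 0.19), against Sox11 at 0.65 (SE 0.19) in the same list. Tfap2c, a factor of trophoblast and germ cells, had −0.55 (SE 0.15). The homeobox gene Cdx1 had −0.25, the matrix genes Sparc and Lama1 −0.50 and −0.25, the metalloprotease inhibitor Timp3 −0.45 and the surface marker Thy1 −0.30. Among higher members Acta2, a smooth muscle actin, had 0.30 (SE 0.14), and Lamb1, a laminin chain, and Hnf4a, an endoderm factor, had 0.20 each. Fewer cells of a type and less RNA per cell cannot be told apart in these bulk samples.

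The 52 rows with a difference of at least 2-fold cover 49 genes, and 16 of these rows had a mean under 6. The groups did not overlap in 51 of the 52, against 24.1% of all rows. A difference of that size leaves little room for overlap, so this count follows largely from the rule that picked the rows. Several of the largest values among the lower rows came with a wide spread. Calcoco2, an autophagy receptor, had 8.4 and 8.5 untreated and 6.4 and 7.1 with siLin28a, a log2 fold change of −1.70 (SE 0.41), and its other row had −1.25 (SE 0.25). Inhbb, the beta B subunit of inhibins and activins, had 7.7 and 7.6 untreated, 5.8 and 7.7 with siGFP and 5.7 and 6.4 with siLin28a, a log2 fold change of −1.60 (SE 0.59). Zfp281, a zinc finger factor of pluripotent cells, had 9.5 and 9.1 untreated, 7.5 and 9.0 with siGFP and 7.1 and 8.7 with siLin28a, a log2 fold change of −1.4 (SE 0.64). For Inhbb and Zfp281 replicate 1 of both siRNA groups was lower than replicate 2.

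Mras, a small GTPase related to Ras, had −1.30 (SE 0.40) and −1.15 (SE 0.27) in its 2 rows, and the transcription factor Nfib −1.45 (SE 0.43) and −1.15 (SE 0.20). Porcn, which attaches the lipid that Wnt ligands need for secretion, had 7.4 and 7.3 untreated, 6.4 and 7.1 with siGFP and 6.0 and 6.4 with siLin28a, a log2 fold change of −1.15 (SE 0.26). Gabarapl2, an autophagy protein, had −1.10 (SE 0.27) in its brighter row and −0.60 (SE 0.20) in its dimmer one. Yes1, a Src family kinase, had −1.05 (SE 0.26). On the higher side Cenpe, a kinesin of the centromere, had 5.5 and 4.9 untreated, 7.5 and 5.9 with siGFP and 7.0 and 6.2 with siLin28a, a log2 fold change of 1.4 (SE 0.55). Bhlhe40, a repressor of the clock and of the hypoxia response, had 6.1 and 5.8 untreated, 7.1 and 6.6 with siGFP and 7.0 with siLin28a in both arrays, a log2 fold change of 1.05 (SE 0.20). Podxl, a sialomucin of the cell surface, had 1.05 (SE 0.21). Jph1, which joins membranes in muscle, had 1.15 (SE 0.23), and 0.70 (SE 0.18) in its other row.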

How the data were processed

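Per the submitters' processing notes, the authors made the deposited log2 expression values in Affymetrix Expression Console by RMA (background correction, normalization between arrays, summary per probe set). The software version and build are not given in sources used here. Values run from 0.2 to 13.7 in steps of 0.1. The platform annotation named 1 symbol for 21797 rows and several for 1613, of which none is named.

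The test was limma 3.58.1 (R 4.3.3; lmFit and eBayes), two-sided, on all 6 arrays in 3 groups with the contrast siLin28a minus untreated, so that siGFP arrays enter only the shared spread (3 residual and 3.19 prior degrees of freedom). It covered the 23410 rows that name a gene, with Benjamini-Hochberg adjustment over them, and was tested on simulated data. An exact permutation test of 2 against 2 arrays cannot give a p under 0.333. A gene in a list is represented by its brightest row. Members and lists were chosen with earlier results of these data known. Named are Lin28a, Lin28b, Pou5f1, Sox2, Nanog, Plk2, Tbx3 and Lef1, the 12 rows of smallest p in each direction (groups without overlap, the higher one at 6 or more on average, passing over gene models, Rik clones, small RNAs and olfactory receptors) and the 2 largest members of each of 29 lists. Other members and 2-fold rows were named after their values were seen. Alternatives covered the arrays fitted, prior, normalization, dim rows and the rows tested.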

Additional observations from a re-analysis of the deposited data

How the results depend on the processing

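The number of arrays limits the precision, and every count below is over rows with 1 symbol. Rows past an adjusted p of 0.05 by limma numbered 6 with a robust prior (Plk2, Lin28a, Tbx3, Dnmt3b, Lef1 and Vrtn) and 5 after cyclic loess (the first 5 of these), and 0 in the other alternatives, including every fit without 1 array. Least squares without a shared prior had no test for 106 rows without spread. For Plk2 and Lin28a the adjusted p lay between 0.0122 and 0.942 over the alternatives. Rows with an unadjusted p under 0.05 numbered 889 of 9821 when only rows with a mean of at least 6 were fitted, and 1108 to 1960 without 1 array. Rows without overlap numbered 7929 after cyclic loess, 2625 among rows with a mean of at least 6, and 9998 to 11982 without 1 untreated or siLin28a array, where 1 group holds a single array. Rows of at least 2-fold numbered 54 to 126 without 1 untreated or siLin28a array and 52 without either siGFP array. Among genes named by rule, the differences that turned in sign without 1 array were those of Lin28b (from −0.35 to 0.15), Hsp90b1 (from −0.30 to 1.0), Hspa5 (from −0.15 to 0.75) and Usp17la (from −0.05 to 0.85). Over the 743 list members and rows of at least 2-fold, 190 of 668 differences other than 0 turned, and 1 of the 133 of at least 0.4 did (Usp17la). Printed values among these 190 include Gbx2 (−0.40 to 0.10), Socs3 (−0.45 to 0.05), Zic5 (−0.20 to 0.10), Dnmt3a (−0.35 to 0.25), Nodal (−0.05 to 0.25), Nr0b1 (−0.05 to 0.15) and Gdf3 (−0.05 to 0.15). The cause of these moves was not tested. With the replicate number as a replicate block, 0 rows passed the adjusted threshold and 1835 had an unadjusted p under 0.05. Deviations of same-numbered untreated and siLin28a arrays correlated at −0.035, against 0.154 for untreated with siGFP and 0.357 for siGFP with siLin28a. With 2 numbers, and no label that ties a number to a shared culture or day, the arrays were taken to share only a number. The counts of list members without each array and under each scaling, and the count of differences that turned, were added after the data were seen.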
